A study of Arabidopsis thaliana with 18 samples.

Results

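This account describes how leaf transcript levels of the Arabidopsis fc2 pub4 mutant in cycling light differed from those in constant light. It rests on the 6 fc2 pub4 libraries of the 18 in the series, 3 from cycling light and 3 from 24 h light, and they were chosen by genotype and light label alone. The fc2 pub4 plants carried fc2-1, a T-DNA insertion in the 5′ leader of FERROCHELATASE 2 (FC2, AT2G30390), and pub4-6, a point mutation that changes an amino acid of PLANT U-BOX 4 (PUB4, AT2G23140). The cycling light plants spent 17 days in constant light and then 2 days in 16 h light and 8 h dark. The 24 h light plants stayed in constant light for 19 days, and both sets were harvested at 19 days of age, 1 h after subjective dawn. The sources differ by 1 day in the time in constant light and in the age, and the sample labels are followed here. Each library was made from total leaf tissue pooled from 3 plants, and the samples are described as biological triplicates. Col-0 wild type (wt) and fc2-1 (fc2) plants, with 3 libraries in each light condition, are used below only to place the response. A pub4 mutant without fc2 was not analysed here, so the part of pub4 alone cannot be told apart. The dark period, the shorter day and the phase of the circadian clock at harvest changed together, and their parts cannot be told apart either.

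FC2 is a plastid ferrochelatase that makes heme from protoporphyrin IX in the tetrapyrrole pathway, the route that also yields chlorophyll. In fc2 plants that pass from dark to light, protoporphyrin IX builds up and generates singlet oxygen, a reactive oxygen species that signals from the chloroplast to the nucleus. PUB4 is a cytoplasmic E3 ubiquitin ligase, an enzyme that marks proteins with ubiquitin, and pub4-6 was isolated as a suppressor of cell death in fc2.

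The 3 cycling light libraries held 27841862 to 30011183 counted reads and the 3 24 h light libraries 31543172 to 35539708. Levels are given in CPM, the read count of a gene scaled to the size of its library with the trimmed mean of M-values (TMM) correction, always for replicates 1, 2 and 3 in turn. Log2 fold changes (log2FC) are cycling light over 24 h light, with their standard errors (SE) and Benjamini-Hochberg adjusted p-values (padj) from edgeR's quasi-likelihood test. Poly(A)-selected reads from plastid genes were 0.0183 to 0.0267% of counts in cycling light and 0.0261 to 0.0326% in 24 h light. The summed level of 6 mesophyll genes, the main green tissue of the leaf, was 43700 to 45100 CPM in cycling light and 26900 to 32300 CPM in 24 h light, so the leaf label matched its defining genes. Summed flower markers lay between 3.58 and 8.88 CPM in cycling light and between 7.34 and 9.55 CPM in 24 h light. Root markers lay between 82.2 and 125 CPM in cycling light and between 64.5 and 105 CPM in 24 h light. Of the 5 root markers only 1 had enough counts to be tested and 2 had at most 3 counts, so the root sum rests on few genes. The sums of 3 other marker lists did not overlap between the light conditions. Guard cell markers summed to 69.8 to 73.3 CPM in cycling light and 56.0 to 59.5 CPM in 24 h light, vascular and trichome markers to 126 to 143 CPM in cycling light and 171 to 180 CPM in 24 h light, and markers of dividing cells to 78.3 to 84.4 CPM in cycling light and 85.6 to 93.6 CPM in 24 h light. By member, 2 of the 4 guard cell markers rose at padj under 0.01 and the others did not pass. Of the 5 vascular and trichome markers 1 rose and 1 fell, with a median log2FC of 0.22, opposite to their sum. None of the 7 tested dividing cell markers passed. In these bulk samples, fewer cells of a type and less RNA per cell cannot be told apart. Cycling light replicate 2 stood apart from its group on the second principal component, at −32.0 against 14.5 and 16.9, and that component carried 7.33% of the variance. The first carried 78.1% and separated the light conditions.

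The mutated loci themselves differed little with light. FC2 had 57.7, 70.03 and 57.2 CPM in cycling light, against 55.0, 53.0 and 59.5 CPM in 24 h light (log2FC 0.14, SE 0.09, padj = 0.189). PUB4 had 22.8, 21.0 and 21.5 CPM in cycling light, against 24.8, 26.3 and 26.9 CPM in 24 h light (log2FC −0.26, SE 0.07, padj = 0.0122). The groups did not overlap for PUB4, though it did not pass the threshold of 0.01. PUB4 passed in a fit over the 18 libraries together (padj = 0.00187) and with scaling by total counts alone (padj = 0.000918), in the same direction. On a common scale over the 18 libraries, FC2 averaged 60.7 ± 7.12 CPM in fc2 pub4 and 167 ± 7.96 CPM in wt, both in cycling light (SD, n = 3 each). In fc2 in cycling light FC2 averaged 50.2 ± 5.15 CPM. PUB4 carries a point mutation, so its transcript level does not check the genotype. OFP17 (AT2G30395), which lies beside FC2 and encodes an OVATE family protein, averaged 238 ± 3.36 CPM in fc2 pub4 and 1.09 ± 0.268 CPM in wt in cycling light. In fc2 in cycling light OFP17 averaged 210 ± 7.97 CPM, so its high level was not particular to fc2 pub4. It did not pass the light test within fc2 pub4 (padj = 0.982).

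Cycling light changed the levels of a large share of the transcriptome. Of 19839 genes tested, 4111 were higher in cycling light at padj under 0.01, which is 20.7%, and 3851 were lower, which is 19.4%. These shares are the background for the counts of each gene list below, which are descriptions. With the added requirement of an absolute log2FC over 1.5, the definition of a differentially expressed gene (DEG) used here, 614 genes were higher, 3.09% of those tested, and 402 were lower, 2.03%. The median log2FC over the tested genes was 0.00 to 2 decimals. When libraries were scaled by total counts alone, this median moved to −0.14 and the DEGs became 502 higher and 501 lower. The share of calls at padj under 0.01 that were higher was then 34.8%, against 51.6% with the scaling used here.

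The circadian clock gave some of the widest separations between the light conditions. The plant clock is a loop in which MYB transcription factors that peak at dawn, CCA1 and LHY, repress genes of the day and evening, whose products in turn repress the morning genes. Of 14 morning genes, 13 rose and 1 fell at padj under 0.01, with a median log2FC of 2.48. Of 15 day and evening genes, 3 rose, 11 fell and 1 did not pass, with a median of −2.65. CCA1 (AT2G46830) had 965, 920 and 972 CPM in cycling light, against 74.0, 138 and 106 CPM in 24 h light (log2FC 3.17, SE 0.18, padj = 2.27e-07). Its partner LHY (AT1G01060) had 1628, 1552 and 1586 CPM in cycling light, against 106, 235 and 160 CPM in 24 h light (log2FC 3.25, SE 0.23, padj = 9.54e-07). The cycling light libraries lay close together and far above the 24 h light ones, which varied more, for both MYB genes.

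The coactivators that work with the dawn MYB proteins rose as well. LNK2, a member of the NIGHT LIGHT-INDUCIBLE AND CLOCK-REGULATED family, had 1674, 1552 and 1727 CPM in cycling light, against 150, 262 and 214 CPM in 24 h light (log2FC 2.98, SE 0.17, padj = 2.01e-07). LNK4 had 224, 223 and 219 CPM in cycling light, against 15.4, 23.9 and 18.5 CPM in 24 h light (log2FC 3.53, SE 0.13, padj = 1.98e-08). Neither gene had overlapping groups, and 24 h light replicate 2 was the highest of its group for both. PRR9, a pseudo-response regulator expressed early in the day that represses CCA1 and LHY, had 92.5, 75.3 and 82.9 CPM in cycling light, against 3.15, 2.91 and 3.51 CPM in 24 h light (log2FC 4.71, SE 0.11, padj = 2.32e-09). Of its annotated 50-base exonic sequences, 41.1% occur elsewhere in the genome, and how the counting treated such reads is not given in the sources used here. RVE2, also known as CIRCADIAN 1 and a MYB gene of the same family, was the exception, with 18.6, 22.98 and 19.3 CPM in cycling light, against 148, 115 and 135 CPM in 24 h light (log2FC −2.71, SE 0.11, padj = 3.02e-08). RVE8, an activator of evening genes, rose with a log2FC of 2.06, whereas PRR7 rose by only 0.63 on the log2 scale.

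Of the day and evening genes, FKF1, ELF4, PRR5, PRR3, COR27 and COR28 averaged under 1 CPM in cycling light, and the other list members averaged above that level, up to 69.2 CPM for ZTL. FKF1, a blue light receptor and F-box protein that times flowering, had 0.139, 0 and 0.111 CPM in cycling light, against 29.2, 10.9 and 19.4 CPM in 24 h light (log2FC −7.80, SE 0.57, padj = 1.27e-06). ELF4, a subunit of the evening complex, had 0.383, 0.264 and 0.296 CPM in cycling light, against 27.7, 16.7 and 23.4 CPM in 24 h light (log2FC −6.14, SE 0.26, padj = 4.15e-08). PRR5, a later member of the pseudo-response regulator series, had 0.939, 0.565 and 0.222 CPM in cycling light, against 25.1, 14.7 and 21.4 CPM in 24 h light (log2FC −5.12, SE 0.32, padj = 4.22e-07). No cycling light library of these 3 genes came near a 24 h light library, and 24 h light replicate 2 was the lowest of its group for each. TOC1, which represses CCA1 and LHY at night, had 21.5, 19.0 and 18.7 CPM in cycling light, against 134, 86.3 and 105 CPM in 24 h light (log2FC −2.46, SE 0.14, padj = 2.66e-07). The paired repressors COR27 and COR28 had log2FC of −5.49 and −6.06, PRR3 of −5.62, the evening complex genes LUX and ELF3 of −2.65 and −1.99 and the LUX relative BOA of −3.06, each past the threshold. The list members that rose were CDF1, a repressor of flowering genes that peaks in the morning, at 1.45, GI at 0.79 and ZTL at 0.54. LKP2 did not pass (log2FC 0.27, padj = 0.0166).

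**Figure D1:**
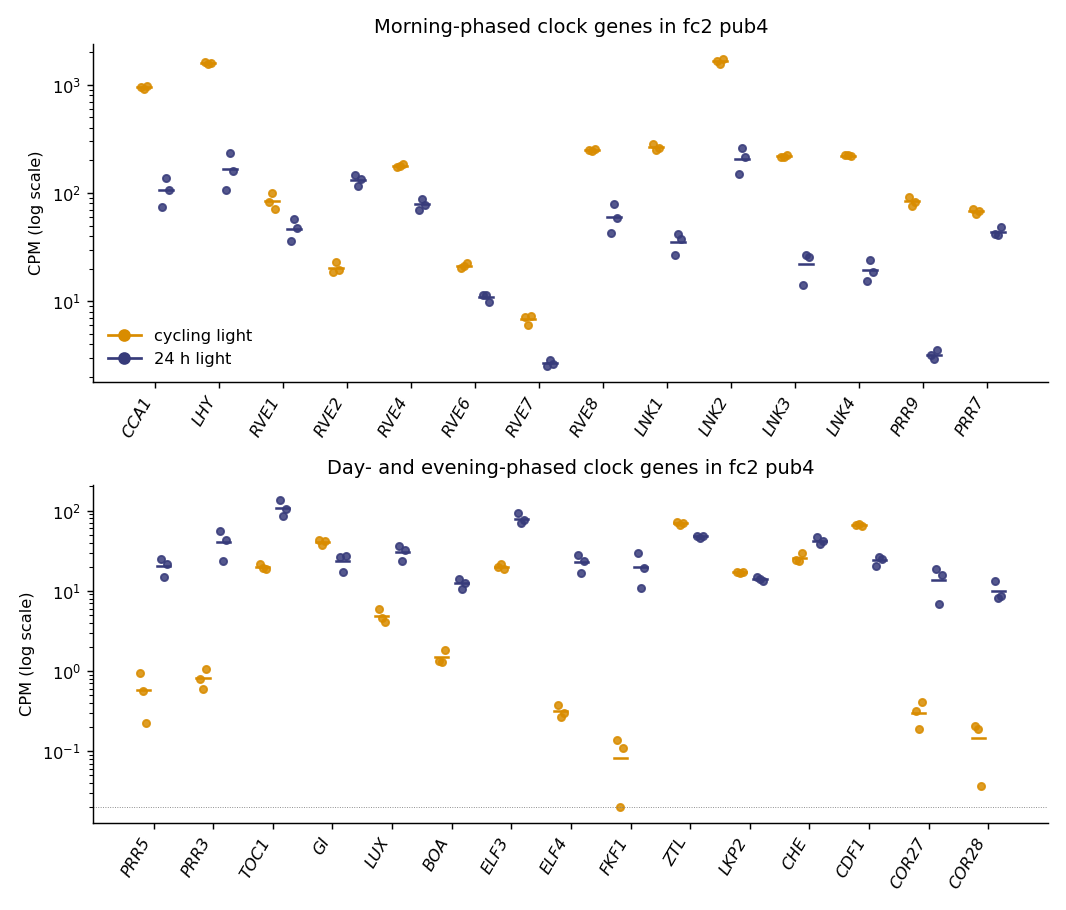
Level of clock genes in each fc2 pub4 library, in CPM on a logarithmic axis, with morning genes in the upper panel and day and evening genes in the lower panel. Cycling light is drawn left of 24 h light, each point is 1 library, and a value of 0 (FKF1, cycling light replicate 2) is drawn on the dotted line at the foot of the axis. PRR9 lies between 75.3 and 92.5 CPM in cycling light and between 2.91 and 3.51 CPM in 24 h light, while FKF1 lies between 0 and 0.139 CPM in cycling light and between 10.9 and 29.2 CPM in 24 h light.

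The evening element, the sequence AAAATATCT, is the motif through which the dawn MYB proteins are known to repress evening genes. It was looked up on both strands in windows of 300 bases, 250 before to 50 after each annotated start (RefSeq, TAIR10.1). It was present in 67 of 402 DEGs lower in cycling light, which is 16.7%, in 13 of 613 DEGs higher in cycling light, which is 2.12%, and in 593 of 19735 tested genes, which is 3.00%. The related CCA1-binding site AAAAATCT was present in 10.4, 7.18 and 8.04% of the same sets, and the G-box CACGTG, bound by bHLH and bZIP factors, in 13.4, 17.3 and 8.70%. These shares are descriptions, and no match was tested as a binding site. Among the clock genes the evening element was found for 7 of 15 day and evening genes and 2 of 14 morning genes, and the G-box for 10 of 14 morning genes and 2 of 15 day and evening genes. The stretches below show the evening elements that lie before the annotated start of clock genes, written 5′ to 3′ on the strand of the gene, with the element in capitals. A match in the reverse orientation reads AGATATTTT.
FKF1, chr1:25508433-25508481, plus strand: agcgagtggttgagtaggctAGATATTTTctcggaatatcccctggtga
PRR5, chr5:8358705-8358753, minus strand: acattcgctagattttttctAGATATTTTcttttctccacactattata
COR27, chr5:17199911-17199969, minus strand: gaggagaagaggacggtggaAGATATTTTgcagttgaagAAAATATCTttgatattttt
BOA, chr5:24003825-24003873, plus strand: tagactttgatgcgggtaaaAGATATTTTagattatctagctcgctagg
LUX, chr3:17182969-17183017, plus strand: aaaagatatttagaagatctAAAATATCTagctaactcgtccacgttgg
TOC1, chr5:24674792-24674840, plus strand: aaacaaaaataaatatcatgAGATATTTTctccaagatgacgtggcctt
RVE7, chr1:6308265-6308313, minus strand: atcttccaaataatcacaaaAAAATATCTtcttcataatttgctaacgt

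The day and evening genes of this set all fell and the morning gene RVE7 rose. COR27, the only one shown with 2 elements, had 0.313, 0.188 and 0.407 CPM in cycling light, against 18.8, 6.76 and 15.8 CPM in 24 h light. RVE7 had 7.13, 6.07 and 7.33 CPM in cycling light, against 2.49, 2.88 and 2.63 CPM in 24 h light (log2FC 1.36, SE 0.15, padj = 2.22e-05). Of its 50-base exonic sequences, 58.8% occur elsewhere in the genome. The groups of both genes were apart, in opposite directions.

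B-box zinc finger genes, which encode transcription factors of light signalling and photoperiod, moved widely in either direction. Of 20 tested of 21 listed, 13 rose and 5 fell, with a median log2FC of 2.25. BBX30, which encodes a small B-box protein, had 39.4, 39.2 and 37.7 CPM in cycling light, against 1.35, 2.51 and 1.72 CPM in 24 h light (log2FC 4.39, SE 0.16, padj = 1.61e-08). BBX29, BBX32, BBX31 and BBX16 rose by log2FC 4.05, 3.53, 3.47 and 3.18. COL9, a CONSTANS-like repressor of flowering, had 5.63, 4.90 and 4.81 CPM in cycling light, against 83.5, 54.6 and 69.9 CPM in 24 h light (log2FC −3.76, SE 0.16, padj = 3.53e-08). None of these 6 genes had overlapping groups. CO itself did not pass (log2FC 0.30, padj = 0.118). FT, the mobile flowering signal that CO activates in long days, had 0.244, 0.226 and 0.370 CPM in cycling light, against 2.86, 3.28 and 3.57 CPM in 24 h light (log2FC −3.51, SE 0.28, padj = 2.34e-06). Of 9 tested flowering genes, 3 fell (FT, SPL4 and SPL9), which is 33.3%, against 19.4% of all genes tested. The other 6 did not pass, among them the floral identity genes AP1 and LFY. The SPL9 call was lost without cycling light replicate 1 (padj = 0.0114) or 3 (padj = 0.0134), without 24 h light replicate 3 (padj = 0.0130) and in the fit over the 18 libraries (padj = 0.0171).

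Genes of starch metabolism fell in number more than they rose. Leaf starch is built in the light and broken down at night by glucan phosphorylating enzymes, amylases, phosphorylases and debranching enzymes. Of 29 genes, 8 rose and 20 fell, with a median log2FC of −0.76. The plastid debranching enzyme ISA3 had 5.50, 6.89 and 5.18 CPM in cycling light, against 107, 48.0 and 79.1 CPM in 24 h light (log2FC −3.74, SE 0.27, padj = 1.12e-06). The cytosolic glucan phosphorylase PHS2 had 21.5, 21.3 and 19.6 CPM in cycling light, against 332, 202 and 288 CPM in 24 h light (log2FC −3.72, SE 0.16, padj = 4.70e-08). The alpha-amylase AMY3 had 12.6, 11.3 and 12.1 CPM in cycling light, against 142, 84.0 and 144 CPM in 24 h light (log2FC −3.37, SE 0.19, padj = 2.15e-07). In each of the 3 degradation genes the lowest 24 h light library was several times the highest cycling light library. The plastid phosphorylase PHS1 fell by 3.25 on the log2 scale, the phosphoglucan phosphatase SEX4 by 2.58 and the glucan water dikinase GWD1 by 1.99. On the synthesis side GBSS1, the granule-bound starch synthase that makes amylose, had 1294, 1211 and 1315 CPM in cycling light, against 72.0, 131 and 101 CPM in 24 h light (log2FC 3.66, SE 0.18, padj = 8.81e-08). BAM9, an amylase-like protein without known catalytic activity, and the beta-amylase BAM1 rose by log2FC 2.38 and 1.46. BAM5 did not pass (log2FC −2.18, padj = 0.0137). With scaling by total counts alone, 5 rather than 8 starch genes rose.

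Genes of dark and sugar starvation moved in opposite directions. Of 23 tested of 25 listed, 11 rose and 9 fell, with a median log2FC of 0.29. ASN1, the dark-inducible asparagine synthetase that stores nitrogen when sugar is short, had 78.0, 46.2 and 80.7 CPM in cycling light, against 4.32, 5.08 and 2.44 CPM in 24 h light (log2FC 4.12, SE 0.26, padj = 4.76e-07). DIN1, another classic dark-inducible gene and a marker of leaf senescence, had 81.8, 45.9 and 86.3 CPM in cycling light, against 7.96, 7.01 and 4.88 CPM in 24 h light (log2FC 3.44, SE 0.24, padj = 1.04e-06). Cycling light replicate 2 was the lowest of its group for both, and the groups did not overlap. DIN9, a phosphomannose isomerase, rose by log2FC 2.26. BT2, a BTB domain scaffold protein that responds to sugar and nitrogen, had 2.78, 5.01 and 3.59 CPM in cycling light, against 78.5, 50.5 and 66.2 CPM in 24 h light (log2FC −4.11, SE 0.21, padj = 1.04e-07). The dormancy-associated gene DRM1 fell by 2.58 on the log2 scale, and TPS8 and TPS11, class II trehalose phosphate synthase proteins, fell by 1.63 and 1.52. BZIP1 and BZIP11 had 0 counts in the 6 libraries and were not tested. How overlapping genes were counted is not given, so this does not show that they were not expressed.

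**Figure D2:**
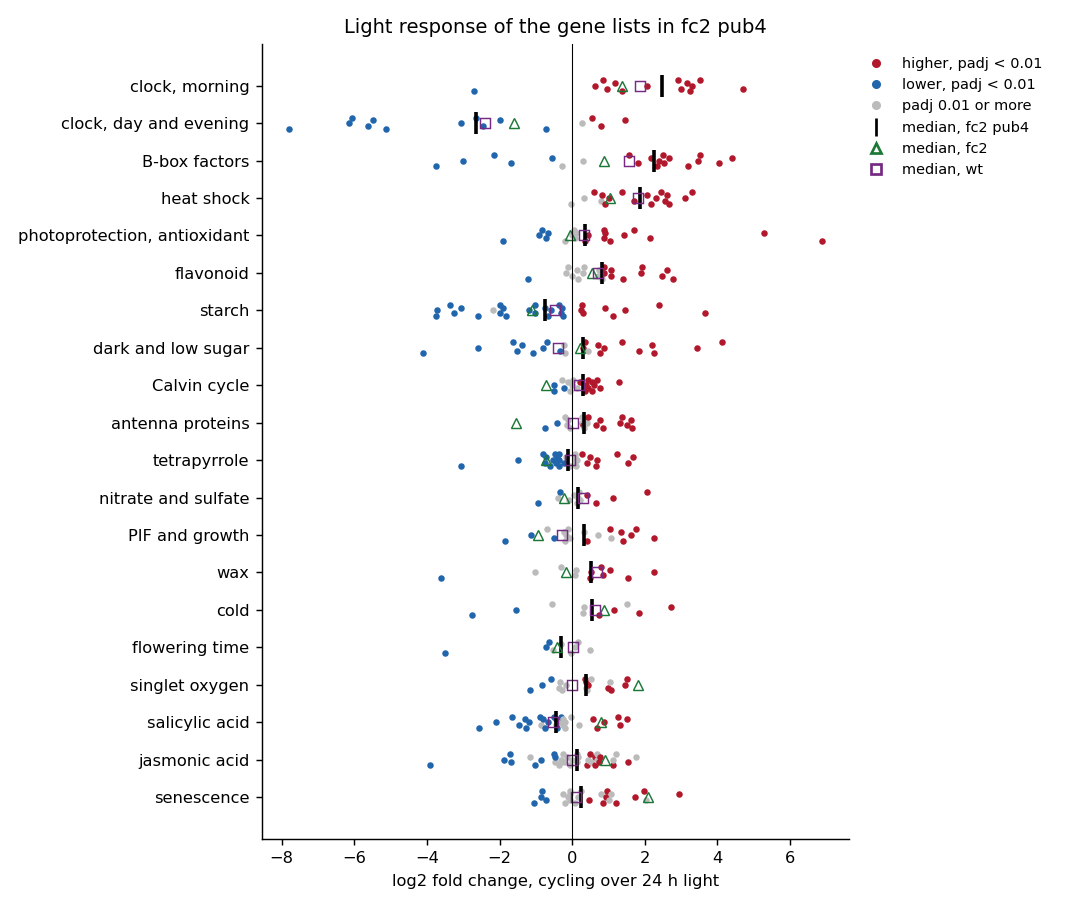
Log2FC of each tested member of the gene lists in fc2 pub4, cycling light over 24 h light, with coloured marks for the list medians of fc2 pub4, fc2 and wt. Each point is 1 gene. The morning clock list has a median of 2.48 and the day and evening list of −2.65 in fc2 pub4, and the antenna list has medians of 0.32 in fc2 pub4, −1.55 in fc2 and 0.02 in wt.

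Tetrapyrrole genes moved in both directions, with HEMA1, GUN4 and CHLH the largest rises and PORB the largest fall. Of 30 tested of 31 listed, 8 rose and 14 fell, with a median log2FC of −0.11. HEMA1, glutamyl-tRNA reductase and the committed first step, had 922, 838 and 900 CPM in cycling light, against 243, 335 and 263 CPM in 24 h light (log2FC 1.66, SE 0.11, padj = 5.54e-07). GUN4, which stimulates magnesium chelatase, had 426, 379 and 418 CPM in cycling light, against 122, 162 and 139 CPM in 24 h light (log2FC 1.53, SE 0.10, padj = 4.73e-07). CHLH, the large subunit of that chelatase, had 3896, 3806 and 3904 CPM in cycling light, against 1241, 2057 and 1607 CPM in 24 h light (log2FC 1.24, SE 0.14, padj = 3.53e-05). The groups of HEMA1, GUN4 and CHLH were apart, and 24 h light replicate 2 was the highest of its group for each. FC1, the second ferrochelatase gene, rose by log2FC 0.68. PORB, which reduces protochlorophyllide to chlorophyllide in light, had 55.9, 62.2 and 56.3 CPM in cycling light, against 528, 424 and 506 CPM in 24 h light (log2FC −3.06, SE 0.09, padj = 6.38e-09). UPM1, which opens the siroheme branch, fell by 1.49 on the log2 scale, and most enzymes between HEMA1 and the branch point that passed fell by less than 1 on that scale, from LIN2 at −0.76 to PPOX2 at −0.23. Of the tetrapyrrole genes, 5 rather than 8 rose with scaling by total counts alone, and likewise without cycling light replicate 1 or without 24 h light replicate 3.

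Light-harvesting antenna genes, which encode chlorophyll-binding proteins around the photosystems, rose in part. Of 21, 10 rose, 2 fell and 9 did not pass, with a median log2FC of 0.32. LHCB1.1 had 3190, 3309 and 3245 CPM in cycling light, against 588, 1474 and 1058 CPM in 24 h light (log2FC 1.64, SE 0.25, padj = 0.000235). LHCB7, a rarely expressed antenna gene, had 62.1, 62.3 and 63.6 CPM in cycling light, against 19.2, 20.8 and 21.1 CPM in 24 h light (log2FC 1.62, SE 0.06, padj = 2.75e-08). LHCB2.2, LHCB2.1 and LHCB2.3 rose by log2FC 1.504, 1.378 and 1.330. LHCB1.4 had 256, 253 and 270 CPM in cycling light, against 388, 468 and 457 CPM in 24 h light (log2FC −0.75, SE 0.08, padj = 1.44e-05). The LHCB1.1 groups were apart although its 24 h light libraries differed widely among themselves, while LHCB1.4 had the 24 h light libraries on top. LHCB1 and LHCB2 genes are near-identical copies, with 10.6 to 29.5% of the 50-base exonic sequences of the LHCB1.1 to LHCB1.5, LHCB2.1 and LHCB2.2 genes found elsewhere in the genome, so the split between copies is uncertain. In a fit over the 18 libraries together, 6 antenna genes rose and the others did not pass, and with scaling by total counts alone 5 fell.

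Of 20 Calvin cycle genes, which fix carbon dioxide, 11 rose and 3 fell, with a median log2FC of 0.29. The plastid aldolase FBA1 had 2753, 2668 and 2935 CPM in cycling light, against 1010, 1295 and 1133 CPM in 24 h light (log2FC 1.28, SE 0.09, padj = 8.47e-07). RCA, Rubisco activase, had 15770, 16340 and 16380 CPM in cycling light, against 8553, 10650 and 9225 CPM in 24 h light (log2FC 0.77, SE 0.08, padj = 1.64e-05). Both genes were higher in each cycling light library than in any 24 h light library. The members that fell were TKL1, PGK1 and RPI3, by 0.51, 0.49 and 0.22 on the log2 scale. The summed mesophyll level given above was higher in cycling light together with these lists and 5 of its 6 genes rose, but the antenna and Calvin cycle lists hold 5 of them. Guard cell markers were also higher and vascular, trichome and dividing cell markers lower in sum. Most members of these lists did not pass, as given above, and the part of cell composition was not tested.

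The photoprotection genes ELIP2 and ELIP1 were among the 10 largest rises by log2FC. ELIP2 (AT4G14690), an early light-inducible protein that binds free chlorophyll in the thylakoid membrane, had 178, 160 and 194 CPM in cycling light, against 0.744, 2.39 and 1.395 CPM in 24 h light (log2FC 6.89, SE 0.22, padj = 9.21e-09). Its paralog ELIP1 had 339, 312 and 358 CPM in cycling light, against 4.69, 14.2 and 7.16 CPM in 24 h light (log2FC 5.28, SE 0.30, padj = 2.01e-07). The lowest cycling light library of either gene was over an order of magnitude above the highest 24 h light library. Of 21 tested photoprotection and antioxidant genes, 11 rose and 5 fell, with a median log2FC of 0.34. The catalases split, with CAT2, the photorespiratory catalase, at 4102, 3792 and 4075 CPM in cycling light, against 1066, 1401 and 1209 CPM in 24 h light (log2FC 1.70, SE 0.09, padj = 1.82e-07). CAT3 had 751, 846 and 780 CPM in cycling light, against 3226, 2811 and 2856 CPM in 24 h light (log2FC −1.90, SE 0.08, padj = 2.92e-08). The groups of the catalases were apart in opposite directions. The iron store FER1 and zeaxanthin epoxidase ZEP rose by log2FC 2.14 and 1.43, and violaxanthin de-epoxidase VDE fell by 0.93 on the log2 scale.

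Heat shock genes rose as a group. Of 18 tested of 22 listed, 15 rose and 3 did not pass (HSFA3, HSP17.4 and HSP18.2), with a median log2FC of 1.88. HSFA2, a heat shock transcription factor that sustains the response, had 68.1, 49.1 and 66.5 CPM in cycling light, against 8.56, 12.2 and 10.2 CPM in 24 h light (log2FC 2.57, SE 0.15, padj = 2.51e-07). GOLS1, a galactinol synthase that heat shock factors induce, had 40.8, 61.3 and 43.9 CPM in cycling light, against 5.78, 4.71 and 6.49 CPM in 24 h light (log2FC 3.10, SE 0.17, padj = 1.67e-07). The groups of HSFA2 and GOLS1 did not overlap. The small heat shock genes were rare. HSP17.6C, which rose by log2FC 3.31, reached 0.730 CPM at most and lost its call without cycling light replicate 1 (padj = 0.0121) or 3 (padj = 0.0102), and HSP17.6II and HSP17.7, at log2FC 2.67 and 2.62, reached 4.81 and 6.33 CPM. HSP21, HSP22, HSP23.6 and HSFB1 were not tested for lack of counts, which does not show that they were not expressed.

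Genes of singlet oxygen signalling did not move together. Of 18 genes known from this signalling, 7 rose, 3 fell and 8 did not pass, with a median log2FC of 0.38. This list is not the set of core singlet oxygen response genes that the study used. WRKY33, a defence transcription factor, had 157, 170 and 149 CPM in cycling light, against 49.2, 67.3 and 50.6 CPM in 24 h light (log2FC 1.51, SE 0.11, padj = 1.41e-06). NOD (AT5G64870) had 8.07, 7.42 and 7.11 CPM in cycling light, against 3.23, 2.36 and 2.58 CPM in 24 h light (log2FC 1.47, SE 0.16, padj = 1.91e-05). The groups of WRKY33 and NOD were apart. BAP1, a membrane-associated inhibitor of cell death and a standard marker, had 3.93, 3.73 and 3.00 CPM in cycling light, against 3.35, 5.54 and 4.83 CPM in 24 h light (log2FC −0.36, SE 0.21, padj = 0.162). Its relative BAP2 fell by 1.17 on the log2 scale, a call that was lost without cycling light replicate 3 (padj = 0.0150) or 24 h light replicate 3 (padj = 0.0107). ZAT12, a zinc finger factor of oxidative stress, had 4.104, 6.78 and 4.37 CPM in cycling light, against 2.72, 4.93 and 4.13 CPM in 24 h light (log2FC 0.37, SE 0.25, padj = 0.231). The BAP1 and ZAT12 groups overlapped. SIB1, a plastid and nuclear sigma factor-binding protein, fell by 0.57 on the log2 scale.

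Of 30 genes for the synthesis, perception and output of the defence hormone salicylic acid, 6 rose, 15 fell and 9 did not pass, with a median log2FC of −0.43. Of all genes tested, 20.7% rose and 19.4% fell. PR1, the standard output gene, had 146, 85.9 and 139 CPM in cycling light, against 324, 296 and 276 CPM in 24 h light (log2FC −1.27, SE 0.16, padj = 7.36e-05). PR2, a beta-glucanase, had 109, 80.7 and 111 CPM in cycling light, against 413, 445 and 426 CPM in 24 h light (log2FC −2.10, SE 0.11, padj = 1.27e-07). NIMIN1, which binds the receptor NPR1, had 2.23, 1.92 and 1.63 CPM in cycling light, against 11.5, 13.3 and 9.82 CPM in 24 h light (log2FC −2.58, SE 0.17, padj = 5.20e-07). None of these output genes had overlapping groups, and the cycling light libraries were lower each time. ICS1, the main enzyme of salicylic acid synthesis, fell by 0.66 on the log2 scale, and WRKY54 and PR5 by 1.65 and 1.45. The members that rose were WRKY28, an activator of ICS1, at log2FC 1.52, the phenylalanine ammonia lyases PAL2, PAL1 and PAL4 at 1.33, 1.25 and 0.58, EPS1 at 0.89 and WRKY46 at 0.68.

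Of 35 tested of 36 listed jasmonic acid genes, 8 rose, 8 fell and 19 did not pass, with a median log2FC of 0.12. The share was 22.9% in each direction, near the 20.7% and 19.4% of all genes tested. AOC2, an allene oxide cyclase of jasmonate synthesis, had 9.22, 22.2 and 7.33 CPM in cycling light, against 180, 172 and 234 CPM in 24 h light (log2FC −3.93, SE 0.32, padj = 2.92e-06). VSP1, a vegetative storage protein and output gene, had 12.2, 12.1 and 13.0 CPM in cycling light, against 48.4, 41.3 and 47.0 CPM in 24 h light (log2FC −1.87, SE 0.08, padj = 4.84e-08). LOX2, the plastid lipoxygenase, had 328, 675 and 339 CPM in cycling light, against 1549, 1280 and 1588 CPM in 24 h light (log2FC −1.72, SE 0.24, padj = 0.000132). The groups of these 3 genes were apart, and cycling light replicate 2 was the highest of its group for AOC2 and LOX2. The transcription factor MYC4 rose by log2FC 1.54, and the repressors JAZ1, JAZ5, JAZ7, JAZ8 and JAZ10 did not pass. AOC3 reversed its sign without cycling light replicate 2, to −0.44, and did not pass in either case.

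Of 25 tested of 26 listed senescence genes, 8 rose, 4 fell and 13 did not pass, with a median log2FC of 0.24. The 8 that rose are 32.0% of those tested, against 20.7% of all genes, and the 4 that fell are 16.0%, against 19.4%. SAG113, a protein phosphatase of the abscisic acid pathway, had 7.23, 12.7 and 7.81 CPM in cycling light, against 1.12, 1.47 and 1.05 CPM in 24 h light (log2FC 2.93, SE 0.25, padj = 3.73e-06). NAP, a NAC transcription factor that activates SAG113, had 32.6, 52.9 and 34.0 CPM in cycling light, against 11.1, 10.2 and 9.04 CPM in 24 h light (log2FC 1.98, SE 0.17, padj = 4.90e-06). The groups of SAG113 and NAP were apart, with cycling light replicate 2 the highest library. ATAF1 and SAG13 rose by log2FC 1.74 and 1.21. SAG12, a cysteine protease specific to late senescence, had 13.4, 7.87 and 14.5 CPM in cycling light, against 0.200, 8.69 and 0 CPM in 24 h light (log2FC 2.04, SE 0.94, padj = 0.0911). Its groups overlapped through 24 h light replicate 2. ORE1, a central NAC regulator of leaf death, did not pass (log2FC −0.05, padj = 0.914), and NYC1, a chlorophyll b reductase, fell by 0.82 on the log2 scale.

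Light signalling and pigment genes rose more often than they fell. HY5, the bZIP factor that promotes photomorphogenesis, had 97.3, 89.6 and 94.9 CPM in cycling light, against 14.7, 19.7 and 15.9 CPM in 24 h light (log2FC 2.49, SE 0.10, padj = 3.02e-08). Its homolog HYH had 195, 185 and 203 CPM in cycling light, against 18.9, 38.3 and 28.5 CPM in 24 h light (log2FC 2.77, SE 0.19, padj = 8.90e-07). Neither gene had overlapping groups. Of 21 flavonoid genes, 10 rose and 1 fell, with a median log2FC of 0.83, and 5 rather than 10 rose without 24 h light replicate 3. The rises were led by HYH, by the flavonol regulators MYB11 and MYB12 at log2FC 2.62 and 1.92, and by HY5. Chalcone synthase CHS, the entry enzyme, did not pass (log2FC 0.71, padj = 0.0198), and the late anthocyanin enzymes DFR and LDOX had log2FC −0.12 and −0.17 without passing. The anthocyanin repressor MYBL2 fell by 1.202 on the log2 scale.

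Of 19 genes of phytochrome-interacting factors and growth, 7 rose and 3 fell, with a median log2FC of 0.32. These are 36.8 and 15.8% of the list, against 20.7 and 19.4% of all genes tested. PIF4 had 6.37, 10.7 and 9.21 CPM in cycling light, against 35.6, 26.2 and 33.0 CPM in 24 h light (log2FC −1.85, SE 0.17, padj = 6.70e-06). PIF5 had 186, 174 and 184 CPM in cycling light, against 45.1, 58.5 and 56.6 CPM in 24 h light (log2FC 1.76, SE 0.09, padj = 1.29e-07). These closely related growth-promoting factors thus had groups that were apart in opposite directions. The growth regulator PRE1 rose by log2FC 2.25. Of 13 genes of nitrate and sulfate assimilation, 4 rose and 2 fell (NIR1 and APS3), 30.8 and 15.4% of the list. In this list 1 rather than 2 fell without cycling light replicate 1 or 3 or without 24 h light replicate 3. APR2, a sulfate reduction enzyme, had 1067, 849 and 1022 CPM in cycling light, against 198, 262 and 240 CPM in 24 h light (log2FC 2.07, SE 0.11, padj = 1.81e-07). Of 12 tested wax genes, 7 rose and 1 fell, and 2 fell without 24 h light replicate 2. The 1 that fell was DEWAX, a repressor of wax synthesis known to rise in the dark, with 5.36, 8.29 and 3.96 CPM in cycling light, against 65.1, 77.6 and 71.6 CPM in 24 h light (log2FC −3.61, SE 0.19, padj = 1.26e-07). The wax ester synthase WSD1 rose by log2FC 2.27 and the elongase KCS1 by 1.55. Of 10 tested cold genes, 4 rose and 2 fell, with CBF3 at log2FC −2.77 and GOLS3 at 2.72, both under 4 CPM in each library. Without cycling light replicate 3 or 24 h light replicate 3, 2 rather than 4 cold genes rose.

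Among the largest rises by log2FC were further genes outside these lists. ABCF2 (AT5G09930), an ABC protein without membrane domains, had 2.19, 2.90 and 1.70 CPM in cycling light and no counts in 24 h light, so it was at least 26.4-fold higher against a floor of 3 counts per library. AT3G24750 was at least 34.8-fold higher on the same basis. AT3G09450 had 95.3, 83.1 and 92.4 CPM in cycling light, against 0.687, 0.826 and 0.993 CPM in 24 h light (log2FC 6.74, SE 0.12, padj = 4.44e-10). The seed protein gene M17, of whose 50-base sequences 23.2% are repeated, the Dof factor gene AT1G26790, AT3G54510 and AT3G55580 completed the 10 largest rises with ELIP2, ELIP1 and PRR9, at log2FC 6.06, 5.15, 4.90 and 4.67. Among the 10 largest falls were JMJD5, a histone demethylase of the clock, with 1.39, 0.678 and 0.481 CPM in cycling light, against 78.8, 33.4 and 54.4 CPM in 24 h light (log2FC −6.01, SE 0.39, padj = 5.72e-07). FKF1, ELF4, COR28 and PRR3 were also in that set, together with AT1G56300, AT2G39920 and AT1G07050 at log2FC −6.21, −5.79 and −5.73, and AT3G50120, which was at least 30.5-fold lower. AT5G36790, with 0, 0 and 0.0740 CPM in cycling light, against 46.2, 34.3 and 0.590 CPM in 24 h light, had the largest fitted fall. All of its 50-base exonic sequences (100%) occur elsewhere in the genome and its call was lost without cycling light replicate 1 (padj = 0.0108) or 3 (padj = 0.0143), so its level is uncertain.

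The question of what pub4 leaves of the light response can be put by setting the light log2FC of fc2 pub4 beside those of wt and fc2, which share no libraries with it. In wt, 440 genes were DEGs higher and 330 lower in cycling light. Across 19455 genes tested in both, the light log2FC of fc2 pub4 and wt had a Pearson r of 0.872 and a Spearman rho of 0.832, given as a description over genes, which are not independent replicates. Of 580 DEGs higher in fc2 pub4 and tested in wt, 573 had the same sign in wt and 354 were DEGs there, 61.0% of the fc2 pub4 set and 81.6% of the wt set of 434. Of 393 DEGs lower in fc2 pub4, 388 had the same sign and 249 were shared, 63.4 and 76.4% of the sets. Of the 760 wt DEGs, 444 (58.4%) were farther from 0 in fc2 pub4, with a median ratio to the wt log2FC of 1.05. These genes were chosen for their size in wt, which by itself favours larger values there. With the genes chosen in fc2 pub4, 500 of the 580 higher had the higher log2FC there and 310 of the 393 lower had the lower one. That choice in turn favours larger values in fc2 pub4, so these counts are descriptions. The interaction of light with genotype, tested over 12 libraries, was called for 50 of 20185 genes at padj under 0.01, which is 0.248%. Of these, 25 were higher and 25 lower in fc2 pub4. An unadjusted p under 0.05 in this test was found for 3291 genes. Genes are not independent, so this count cannot be set against chance and is a description. The count of called genes was 414 with DESeq2 and ranged from 2 to 134 when 1 library at a time was left out, as detailed for each library in the closing section.

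**Figure D3:**
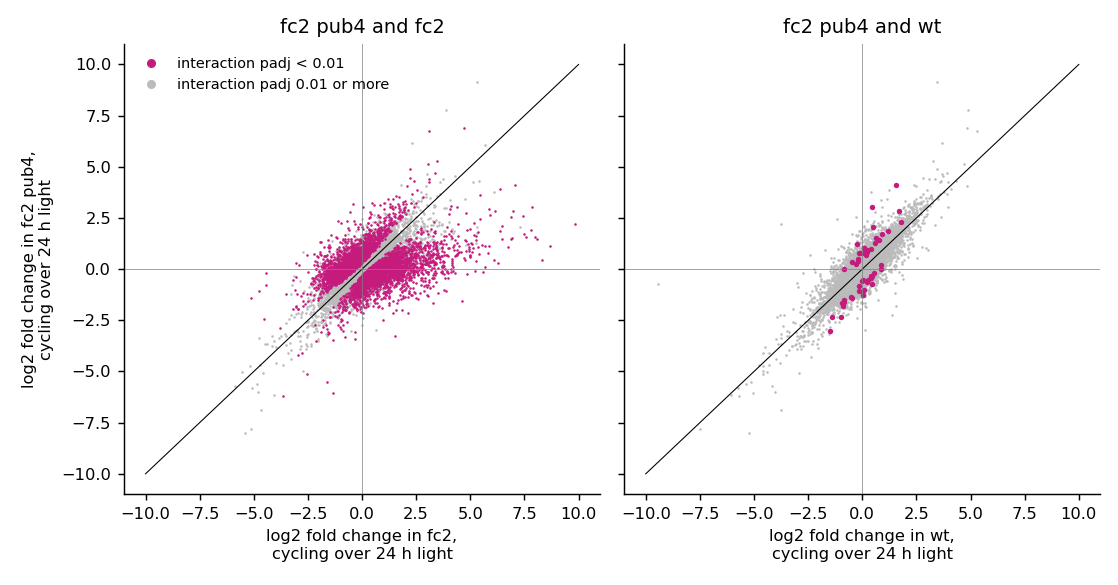
Light log2FC of each gene in fc2 pub4 (vertical axes) against that in fc2 (left panel) and in wt (right panel, both on horizontal axes), cycling light over 24 h light, with genes whose interaction passed padj under 0.01 in pink. The points lie close to the diagonal for wt, where the interaction was called for 50 genes. They spread widely for fc2, where the 5759 called genes tested in both genotypes are marked.

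The genes that differed from wt included dark-response and light-signalling genes. ASN1 averaged 67.2 CPM in fc2 pub4 and 12.2 CPM in wt in cycling light, with 3.91 and 4.12 CPM in 24 h light (interaction log2FC 2.54, SE 0.41, padj = 0.00897). This call was lost in the fit over the 18 libraries (padj = 0.0238 for ASN1), with a replicate block (padj = 0.0127) and in 9 of the 12 fits that left out 1 library, at padj up to 0.0303. BBX14, a B-box factor whose call held under each alternative run, averaged 33.4 CPM in fc2 pub4 and 114 CPM in wt in cycling light, with 270 and 320 CPM in 24 h light (interaction log2FC −1.51, SE 0.16, padj = 0.00171). RUP1, a repressor of the UV-B receptor, had an interaction log2FC of 1.15, the blue copper-binding protein gene BCB of 1.45, the bHLH growth gene BEE1 of 1.57 and AT1G30720 of 2.60. On the negative side were EXLB1 at −1.35, AT3G25670 at −1.28, FMO GS-OX3, a flavin monooxygenase of glucosinolate synthesis, at −1.25 and CYP71B12 at −1.15. Among the list members with smaller interactions were TPS5 at −0.78, APR1 at −0.64 and BBX15 at −0.58. Among these named genes AT3G25670 lost its call with the replicate block (padj = 0.0143), in the fit over the 18 libraries (padj = 0.0253) and in 10 of the 12 fits without 1 library. EXLB1 lost it in the fit over the 18 libraries (padj = 0.0238) and in 8 of the 12 fits, RUP1 in 7, and BEE1 in the fit over the 18 libraries (padj = 0.0108) and in 3 of the 12. AT1G30720, BCB and FMO GS-OX3 lost it in 3 of the 12 fits each and CYP71B12 in 1. ELIP2 missed the threshold for this difference (interaction log2FC 2.04, padj = 0.0117).

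In fc2, 1391 genes were DEGs higher and 526 lower in cycling light. Across 19651 genes the light log2FC of fc2 pub4 and fc2 had a Pearson r of 0.562 and a Spearman rho of 0.519. Of 591 DEGs higher in fc2 pub4 and tested in fc2, 273 were shared, 46.2% of the fc2 pub4 set and 22.5% of the fc2 set of 1211. Of 395 DEGs lower in fc2 pub4, 188 were shared, 47.6% of the fc2 pub4 set and 36.8% of the fc2 set of 511. Of the 1722 fc2 DEGs, 242 were farther from 0 in fc2 pub4, and the median ratio of the fc2 pub4 log2FC to the fc2 log2FC was 0.356. The sign in fc2 pub4 was the same for 973 of the 1211 fc2 DEGs higher and 453 of the 511 lower. With the genes chosen in fc2 pub4 instead, 451 of the 591 DEGs higher had the higher log2FC in fc2 pub4 and 316 of the 395 lower had the lower one. Each set was chosen for its size in 1 genotype, which by itself favours larger values there, so these counts are descriptions. The interaction was called for 5817 of 20541 genes, which is 28.3%. Of the 5759 tested in both genotypes, 2355 were called for light in fc2 and not in fc2 pub4, 1415 in fc2 pub4 and not in fc2, 1182 in both with the same sign and 554 in both with opposite signs.

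The antenna, salicylic acid and jasmonic acid lists were among those that differed from fc2 in a uniform direction. So were the morning clock (9 called), growth (10), wax (8) and nitrate and sulfate (6) lists, each called member with the higher log2FC in fc2 pub4. The 25 called WRKY genes each had the lower one. The interaction was called for 21 of 21 antenna genes, each with the higher log2FC in fc2 pub4, for 23 of 30 salicylic acid genes and for 19 of 35 tested jasmonic acid genes, each of those with the lower log2FC in fc2 pub4, beside 28.3% of all genes in either direction. LHCB2.3 had 543, 503 and 597 CPM in fc2 pub4 in cycling light and 140, 295 and 223 CPM in 24 h light, against 123, 105 and 140 CPM in fc2 in cycling light and 599, 264 and 511 CPM in 24 h light (interaction log2FC 3.23, SE 0.38, padj = 1.79e-05). The light conditions were thus ordered oppositely in fc2 pub4 and fc2. In wt this gene had 925, 920 and 843 CPM in cycling light and 389, 718 and 1140 CPM in 24 h light, so its wt groups overlapped. LHCB1.4 fell in fc2 pub4 and in fc2, with an interaction log2FC of 3.65.

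PR1 had 144, 84.5 and 137 CPM in fc2 pub4 in cycling light and 319, 294 and 274 CPM in 24 h light, against 2220, 1960 and 1570 CPM in fc2 in cycling light and 194, 229 and 278 CPM in 24 h light (interaction log2FC −4.31, SE 0.27, padj = 4.49e-07). In wt, PR1 had 45.4, 32.9 and 28.8 CPM in cycling light and 222, 225 and 121 CPM in 24 h light. PR1 was thus lower in cycling light in fc2 pub4 and wt and higher in fc2. PR2 averaged 98.5 CPM in fc2 pub4 in cycling light and 424 CPM in 24 h light, against 306 and 307 CPM in fc2 (interaction log2FC −2.09, padj = 9.01e-07). The output genes VSP1 and VSP2 had interaction log2FC of −2.80 and −2.95 against fc2, and the cell death inhibitor genes BAP1 and BAP2 of −2.55 and −3.85.

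**Figure D4:**
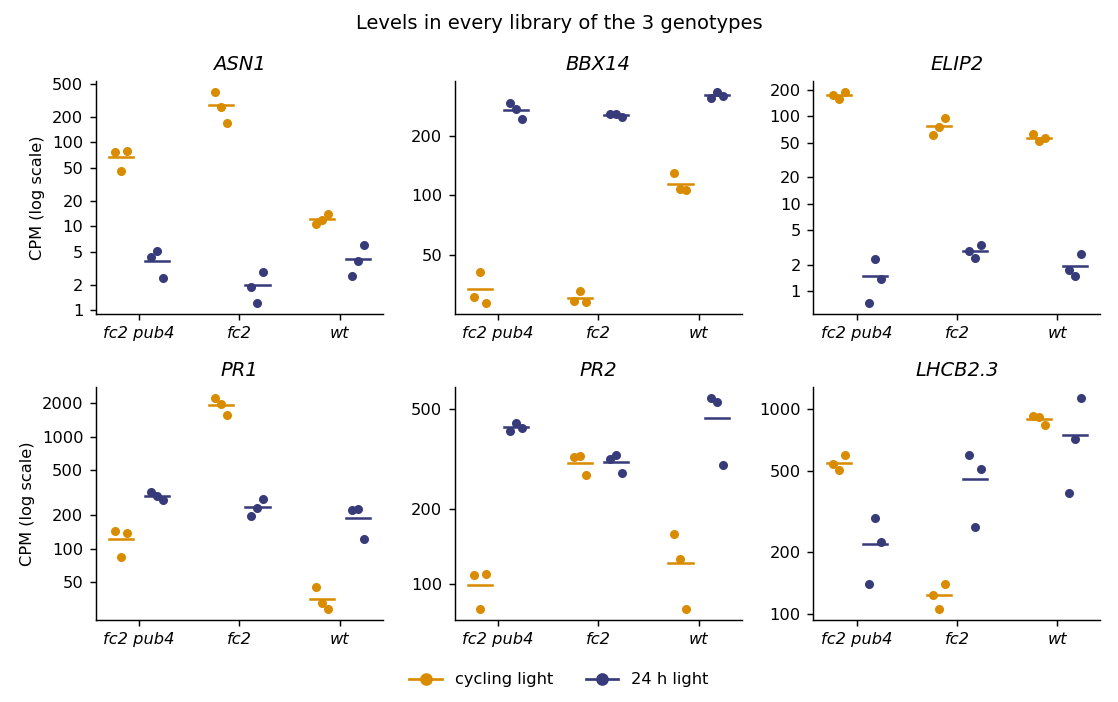
Level in each library, in CPM on logarithmic axes, of ASN1, BBX14, ELIP2, PR1, PR2 and LHCB2.3 in fc2 pub4, fc2 and wt, with cycling light left of 24 h light in each genotype. Each point is 1 library. PR1 lies between 84.5 and 144 CPM in cycling light in fc2 pub4 and between 1570 and 2220 CPM in fc2, and BBX14 lies between 28.5 and 41.0 CPM in fc2 pub4 and between 106 and 130 CPM in wt.

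Among the starvation and senescence genes, the responses shared with fc2 were smaller in fc2 pub4 for several members. ASN1 averaged 67.2 CPM in fc2 pub4 and 279 CPM in fc2 in cycling light, with 3.91 and 2.00 CPM in 24 h light (interaction log2FC −2.98, SE 0.54, padj = 0.000504). DIN2, a beta-glucosidase, averaged 6.12 CPM in fc2 pub4 and 108 CPM in fc2 in cycling light, with 1.37 and 0.110 CPM in 24 h light (interaction log2FC −7.67, SE 1.17, padj = 0.00014). Its fc2 libraries in 24 h light were near 0 counts, at 0.176, 0.0658 and 0.0871 CPM, so the size of this interaction is uncertain. GDH2, a glutamate dehydrogenase of carbon starvation, averaged 26.7 CPM in fc2 pub4 and 202 CPM in fc2 in cycling light, with 21.1 and 19.5 CPM in 24 h light (interaction log2FC −3.02, SE 0.26, padj = 1.95e-06). SAG13 and SAG113 had interaction log2FC of −3.90 and −2.95, whereas those of NAP and ATAF1 did not pass (padj = 0.801 and 0.164). The other named genes with the largest interactions against fc2 were IAA29 at 4.25, ACS4 at 3.68, AT3G09450 at 3.65 and PP2-A5 at 3.55, and DOX1 at −7.58. IAA29 and ACS4 averaged under 6 CPM in each group, and DOX1 averaged 0.32 CPM in fc2 in 24 h light. The fit also called 3 rarely counted or repeated genes whose fitted interactions (AT5G36790 at −13.85, AT2G15780 at −10.92 and AT3G46680 at −7.70) rest on groups at or near 0 counts and are not measured folds. AT2G15780 averaged 0.0243 CPM in fc2 pub4 in cycling light and 0.0785 CPM in 24 h light, against 2.52 and 0 CPM in fc2. AT3G46680 averaged 0.133 CPM in fc2 pub4 in cycling light and 0.0762 CPM in 24 h light, against 1.33 and 0 CPM in fc2. AT3G46680 lost its call without each of 7 of the 12 libraries, AT2G15780 without fc2 pub4 24 h light replicate 2 (padj = 0.0527), and AT5G36790 without fc2 cycling light replicate 3 (padj = 0.442) or fc2 pub4 cycling light replicate 3 (padj = 0.0102).

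In the tetrapyrrole pathway, 23 of 30 genes differed from fc2, 21 of them with the higher log2FC in fc2 pub4. HEMA1 had a light log2FC of 1.66 in fc2 pub4, 0.05 in fc2 and 1.25 in wt (interaction against fc2 1.60, SE 0.19, padj = 1.92e-05). CHLH had 1.24 in fc2 pub4, −0.24 in fc2 and 0.97 in wt (interaction against fc2 1.47, SE 0.24, padj = 0.00024). GUN4 had 1.53 in fc2 pub4, 0.25 in fc2 and 1.24 in wt (interaction against fc2 1.26, SE 0.18, padj = 9.28e-05). These regulated steps were therefore called for light in fc2 pub4 and wt only, with the difference from fc2 past the threshold and that from wt not (padj = 0.310, 0.592 and 0.325). PORB had a log2FC of −3.06 in fc2 pub4, −3.13 in fc2 and −3.39 in wt, and FC1 of 0.68 in fc2 pub4, 1.26 in fc2 and 0.64 in wt. Among the clock genes, 9 of 14 morning genes and 7 of 15 day and evening genes differed from fc2. COR28 fell by 6.06 on the log2 scale in fc2 pub4 and by 1.35 in fc2 (interaction log2FC −4.73, SE 0.56, padj = 1.85e-05). CCA1 rose by 3.17 in fc2 pub4 and 1.91 in fc2 (interaction log2FC 1.24, SE 0.33, padj = 0.00756).

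**Figure D5:**
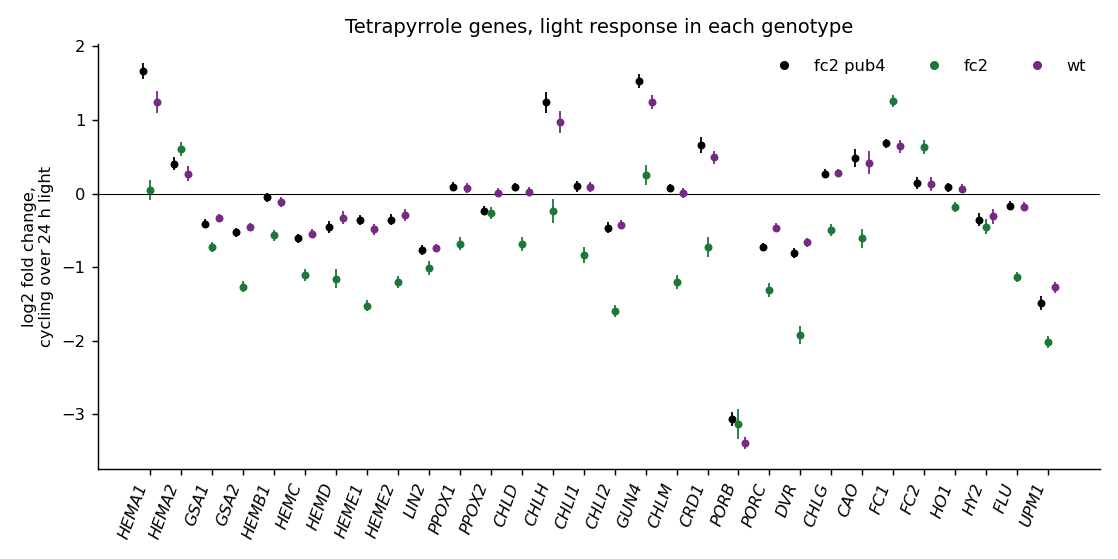
Light log2FC with its SE for tetrapyrrole genes in pathway order, in fc2 pub4, fc2 and wt, cycling light over 24 h light. HEMA1, GUN4 and CHLH lie at 1.66, 1.53 and 1.24 in fc2 pub4 and at 0.05, 0.25 and −0.24 in fc2, and PORB is the lowest point in the 3 genotypes.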

How the data were processed

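Leaf RNA was sequenced with a stranded poly(A) kit as single-end reads of 50 bases. The authors aligned them to TAIR10 with HISAT2 2.1.0, with StringTie 1.3.4 among their tools, and deposited whole-number counts for 33602 loci. How strand, overlapping genes and reads with several matches were counted is not given in the sources used here. The counts were tested as deposited with edgeR (version 4.0.16, on limma 3.58.1, under R 4.3.3), using filterByExpr, TMM scaling and the quasi-likelihood F-test (two-sided) with Benjamini-Hochberg adjustment over all genes tested. The light fit used the 6 fc2 pub4 libraries, and each interaction used 12 libraries. The SE is the absolute log2FC divided by the square root of F. Between 3 and 3 libraries an exact permutation test cannot go below 0.10, so single values were not tested in that way. Replicates of a group differed by more than sampling noise (chi-square per gene 3.58 to 20.9), so none was merged. The p-values measure the spread between pools of 3 plants.

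Named genes were FC2, PUB4 and OFP17, the 10 DEGs with the largest rise and fall among those with at least 50 mean counts in 1 group and no overlap, up to 5 called members with the largest change per list and members that account for short lists, the 23 genes with RT-qPCR primers, and the 5 largest interactions in each direction. Genes outside it (LNK2, RVE8, PRR7, TOC1, LUX, BOA, ELF3, RVE7, SEX4, GWD1, CAT3 and other list members given for their role) were added after their values were seen. The gene lists, members and tests were chosen with earlier results of these data known. Alternatives were DESeq2 1.42.0, other scalings and filters, a replicate block and leaving out each library. The fits were tested on simulated data. Promoter windows came from RefSeq (TAIR10.1).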

Additional observations from a re-analysis of the deposited data

Results flagged for a closer look

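The light response differed between fc2 pub4 and wt, by the test of the light by genotype interaction (edgeR, Benjamini-Hochberg adjusted p under 0.01), for 50 genes, and between fc2 pub4 and fc2 for 5817 genes. Against wt, the named genes with a larger light log2FC in fc2 pub4 were RUP1 (interaction log2FC 1.15), BCB (1.45), BEE1 (1.57), ASN1 (2.54) and AT1G30720 (2.60). Those with a smaller one were BBX14 (−1.51), EXLB1 (−1.35), AT3G25670 (−1.28), FMO GS-OX3 (−1.25), CYP71B12 (−1.15), TPS5 (−0.78), APR1 (−0.64) and BBX15 (−0.58). Against fc2, the named genes with a larger one were PP2-A5 (3.55), AT3G09450 (3.65), LHCB1.4 (3.65), ACS4 (3.68) and IAA29 (4.25). Those with a smaller one were AT5G36790 (−13.85), AT2G15780 (−10.92), AT3G46680 (−7.70), DIN2 (−7.67) and DOX1 (−7.58). All of these but DOX1 are fitted values of genes at or near 0 counts in some groups. DOX1 averaged 0.32 CPM in fc2 in 24 h light.

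Of all genes, 28.3% differed in light response between fc2 pub4 and fc2. Members that differed were 9 of 14 in the morning clock list, 7 of 15 in the day and evening clock list, 23 of 30 tested in the tetrapyrrole list, 21 of 21 in the antenna list and 17 of 20 in the Calvin cycle list. There were 12 of 23 in the dark starvation list, 16 of 21 in the photoprotection list, 11 of 18 in the singlet oxygen list, 23 of 30 in the salicylic acid list, 19 of 35 in the jasmonic acid list and 17 of 25 in the senescence list. There were 10 of 19 in the growth list, 12 of 20 in the B-box list, 6 of 13 in the nitrate and sulfate list, 8 of 12 in the wax list and 30 of 64 in the microautophagy list. The counts of 5 of 18 in the heat shock list, 9 of 29 in the starch list and 7 of 21 in the flavonoid list were near the share of all genes, and the 1 of 9 in the flowering list was below it. No cause of any of these differences was tested.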

How the results depend on the processing

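The counts of genes changed by light in fc2 pub4 stayed within 1.5 times under each alternative run. Leaving out each library in turn gave 572 to 689 DEGs higher in cycling light, 371 to 452 lower, and 6124 to 7613 genes at padj under 0.01. The deviations of same-numbered cycling and 24 h light libraries were almost uncorrelated (0.006, 0.001 and 0.001). These correlations cannot exclude a shared replicate effect in a subset of genes, which was not tested. For LOX4, PAP1 and WRKY40, replicate 2 was the highest library in both light conditions. With a replicate block there were 621 DEGs higher and 392 lower. LOX4 passed with the block (log2FC 0.65, padj = 0.00271) and not without it (log2FC 0.68, padj = 0.035).

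The light by genotype interaction, fc2 pub4 against wt, called 50 genes, against 163 with no filter on low counts, 414 with the DESeq2 Wald test, 422 at padj under 0.05 and 42 with the replicate block. Leaving out each library in turn gave 2 (without fc2 pub4 24 h light replicate 3) to 134 (without fc2 pub4 cycling light replicate 2). The count also moved by over 1.5 times without fc2 pub4 cycling light replicate 1 (18) or 3 (11), without fc2 pub4 24 h light replicate 1 (24) or 2 (104), and without wt cycling light replicate 1 (17), 2 (10) or 3 (20). The interaction against fc2 gave 4726 to 6574 genes without each library and 5559 with the block. With scaling by total counts alone 24.5% of its calls were higher in fc2 pub4, against 49.9%. The cause was not tested.

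Of 139 named genes under these alternatives (2066 values), 2000 values kept their direction and side of the threshold, 47 fell short of it, 7 newly passed and 12 changed sign. The sign changes were OFP17 (−0.0010 with DESeq2 size factors and with the DESeq2 Wald test, −0.1345 with total counts, −0.0101 with no filter, −0.0062 without organelle genes, −0.0071 over 18 libraries, and −0.0126 to 0.0097 when 1 library at a time was left out), PAO (−0.066) and CA1 (0 to 4 decimals), both with total counts, and AOC3 (−0.4395 without cycling light replicate 2, and up to 0.3588 without cycling light replicate 1). None of these 4 genes was called. LHCB1.2, LHCB3 and LHCA1 lost their calls in the fit over 18 libraries, and F3H lost its call without each of 5 libraries.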

Other observations

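Of the 66 microautophagy genes that the study listed, 64 were tested, 6 rose and 24 fell in cycling light in fc2 pub4 (9.38 and 37.5%, against 20.7 and 19.4% of all genes), with a median log2FC of −0.16. ATG8E, which encodes a ubiquitin-like protein of the autophagosome membrane, averaged 12.02 ± 1.70 CPM in cycling light and 40.3 ± 0.505 CPM in 24 h light (SD, n = 3 each, log2FC −1.75, edgeR padj = 1.76e-07). ATG18D and ATG2, of the lipid transfer machinery, fell by 1.04 and 1.00 on the log2 scale, and the ESCRT gene VPS20.1 by 0.98. The cytosolic chaperone HSC70-1 averaged 3271 ± 141 CPM in cycling light and 2274 ± 284 CPM in 24 h light (log2FC 0.52). The median light log2FC of these genes was −0.17 in wt and 0.23 in fc2.

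Of 1198 tested transcription factor genes, 350 rose and 178 fell, and 88 and 44 of these were DEGs. Among bHLH genes 34 rose and 22 fell of 112 tested, among ERF genes 29 rose and 13 fell of 82, among NAC genes 18 rose and 5 fell of 73, and among WRKY genes 16 rose and 8 fell of 58. Of all genes tested in fc2 pub4, 20.7% rose and 19.4% fell, against 29.2 and 14.9% of the transcription factor genes. The shares were 30.4 and 19.6% for bHLH, 35.4 and 15.9% for ERF and 24.7 and 6.85% for NAC genes. For WRKY genes they were 27.6 and 13.8%, near those of all transcription factor genes. In fc2, 31 of the WRKY genes rose and 2 fell, where 22.7% of all genes rose and 21.3% fell. The MYB-related gene ASG4 had 83.6, 68.0 and 78.8 CPM in cycling light, against 2.52, 4.68 and 4.64 CPM in 24 h light (log2FC 4.28).

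Of the 23 genes with RT-qPCR primers in the study, 7 rose and 7 fell, where 20.7% of all genes rose and 19.4% fell. ACT2, an actin gene often used to normalise RT-qPCR, had 831, 834 and 823 CPM in cycling light, against 483, 431 and 462 CPM in 24 h light (log2FC 0.85). CAM1, a calmodulin gene, fell by 1.62 on the log2 scale and PTR3, a peptide transporter gene, by 1.27. Of 66 tested plastid loci and 17 tested mitochondrial loci, 2 fell in each set and the others did not pass. These are 3.03 and 11.8%, against 19.4% of all genes tested. A further 67 plastid and 129 mitochondrial loci were not tested. Reads from these genomes were rare in the poly(A)-selected libraries, so loci that did not pass were not shown to be unchanged.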
